A study of Mus musculus with 52 samples.

Results

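Bulk RNA-seq was compared between 8 tumors that received ADU-S100 alone and 8 untreated tumors, all genes included. These 16 libraries were taken by their labels from a series of 52. ADU-S100 is a synthetic cyclic dinucleotide that activates STING. Each tumor grew under the flank skin of a male C57BL/6NHsd mouse aged 8 to 10 weeks from 1 KPC cell line, a pancreatic ductal adenocarcinoma line carrying Trp53 LSL.R172H/+ and Pdx1-Cre among its alleles. The ADU-S100 group was given 2 µg once into the tumor on day 0, and tumors of both groups were resected on day 14. No injection of vehicle is described for untreated mice, so the injection and the agent cannot be told apart. The labels do not say that each library came from its own mouse, so p-values measure the spread between these libraries. Other groups of 8 received an antibody that activates the lymphotoxin-β receptor (anti-LTβR) without or with ADU-S100, and they are used here only where they show how the ADU-S100 difference behaved beside the antibody.

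STING is an adaptor in the endoplasmic reticulum that binds cyclic GMP-AMP (cGAMP), the product of the DNA sensor cGAS. Once bound it engages the kinase TBK1, which phosphorylates IRF3 and turns on type I interferon, and it also activates NF-κB. Secreted interferon signals through its receptors to a large set of interferon-stimulated genes, and NF-κB drives neutrophil-attracting chemokines. These events follow an agonist within hours, whereas the present libraries hold the state of whole tumors on day 14.

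Between 12762453 and 15214537 reads were recovered per library. The values are normalized counts, that is, gene counts scaled by a size factor common to all genes of a library. Of 27525 genes, 16613 passed a filter on low values and were tested with limma on log2(normalized count + 1), and fold changes are on that scale. At an adjusted p under 0.05 no gene was called (0% of genes tested), with or without a 2-fold limit. The lowest adjusted p was 0.0923. An unadjusted p under 0.05 was found for 2408 genes (14.5%), of which 1316 were higher with ADU-S100 (7.92%) and 1092 lower (6.57%). The absolute log2 difference had a median of 0.11 over all genes tested, and 405 genes differed by 2-fold or more. With edgeR on the recovered reads 1 gene passed, and with DESeq2 39 genes passed. With tumor number as a block in limma 2 genes passed, Pfkfb3 among them. Without untreated tumor 6 the limma count was 6 and without ADU-S100 tumor 4 it was 1, and 1597 genes had an unadjusted p under 0.05 when untreated tumor 4 was left out. The genes described next are therefore those ranked first by p, and they are given as measured differences.

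**Figure D1:**
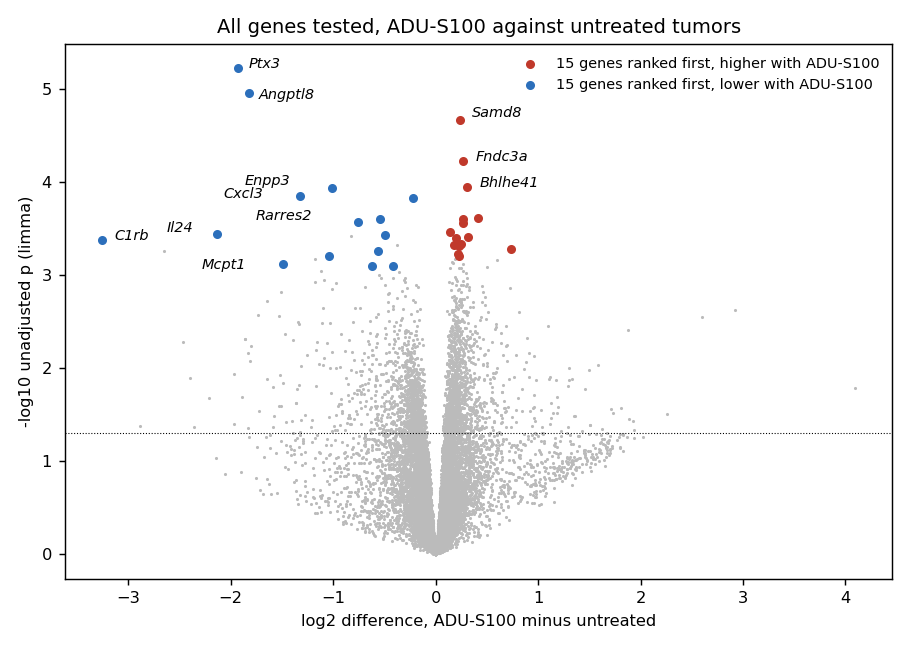
Each point is 1 of 16613 genes, with the log2 difference (ADU-S100 minus untreated) on the x axis and −log10 of the unadjusted limma p on the y axis. The dotted line marks an unadjusted p of 0.05. Genes ranked first among those lower lie as far out as −3.25, and those ranked first among the higher lie close to 0, at 0.14 to 0.74.

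The clearest difference was in Ptx3, which encodes pentraxin 3, a soluble pattern-recognition protein made by stromal and myeloid cells on NF-κB activation. In untreated tumors 1 to 8 its normalized count was 317, 328, 256, 241, 239.7, 77.8, 191 and 114. In ADU-S100 tumors 1 to 8 it was 23.2, 42.4, 55.9, 52, 64.4, 59.2, 93.4 and 52.5. Untreated tumors lay above every treated tumor, with the exception of untreated tumor 6. The log2 difference was −1.93 ± 0.30 (SE, n = 8 per group), with an adjusted p of 0.0923 in limma. The adjusted p was 0.0443 with edgeR on recovered reads and 0.0039 in limma without untreated tumor 6. Without untreated tumor 2 the lowest adjusted p of any gene was 0.301 in limma. For Ptx3, Angptl8, Enpp3 and C1rb the tumor left out is the one nearest the other group, a choice that favors a low p. The deposited table places Ptx3 on chromosome 3 at 66127331 to 66133227, plus strand, and the processing notes name the mm39 build.

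Angptl8, which encodes a secreted regulator of lipoprotein lipase, was measured at few reads. Its normalized count was 10.5 to 22.7 in untreated tumors and 0.99 to 10.8 in ADU-S100 tumors, and only ADU-S100 tumor 4 reached the untreated range. Its log2 difference was −1.82 ± 0.30 (SE), also with an adjusted p of 0.0923, and without ADU-S100 tumor 4 the adjusted p was 0.011. Enpp3, an ectoenzyme of basophils and mast cells, had a median of 47.8 in untreated and 21.2 in ADU-S100 tumors. Its log2 difference was −1.01 ± 0.20 (SE). Untreated tumor 6 was again the low one at 21.1, and without it the adjusted p of Enpp3 was 0.0086.

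The other genes ranked first among those lower were all at an adjusted p of 0.276. Rarres2, which encodes the chemoattractant chemerin, ran from 564 to 1086 (median 853) in untreated tumors and from 316 to 721 (median 513) in ADU-S100 tumors. The log2 difference of Rarres2 was −0.76. Il24, a cytokine of the interleukin-10 family, had medians of 60.3 and 10.4 (log2 −2.13), with ranges that overlapped between 19.7 and 43.8. C1rb, a paralog of the complement protease C1r whose reads may be shared with it, lay between 25.8 and 76.1 in 7 untreated tumors and at 1.7 in untreated tumor 6, against 0 to 18.3 with ADU-S100 (log2 −3.25). Without untreated tumor 6 its adjusted p was 0.044. S1pr3, a receptor for sphingosine 1-phosphate, was lower by a log2 value of −0.56, Cpxm1, a secreted carboxypeptidase-like protein, by −1.04, and Nnmt, nicotinamide N-methyltransferase, by −0.62. The chemokine Cxcl3 (−1.33) and the mast cell protease Mcpt1 (−1.49) are taken up with their groups. The rest were Txndc11 (−0.22), Rbm12b1 (−0.50), the ribosomal protein gene Rpl13 (−0.42) and the processed pseudogene Rps15a-ps6 (−0.54), whose reads can be shared with its parent.

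The genes ranked first among those higher differed by 0.14 to 0.74 on the log2 scale, none of them 2-fold, and varied little between tumors. Samd8, which encodes a ceramide phosphoethanolamine synthase, ran from 878 to 1008 in untreated tumors and from 1016 to 1180 in ADU-S100 tumors. The groups did not overlap, and the log2 difference was 0.23 ± 0.040 (SE) with an adjusted p of 0.118 in limma and 0.000285 in DESeq2. Fndc3a, a fibronectin type III domain protein, ran from 2493 to 3078 and from 3196 to 3689, again with no overlap, at a log2 difference of 0.27 ± 0.051 (SE) and an adjusted p of 0.246 in limma and 0.000752 in DESeq2. Bhlhe41, a repressor in the circadian clock (0.31), the glycolytic hexokinase Hk2 (0.32), Fnip1, a partner of folliculin and AMPK (0.41), and Padi4, a peptidyl arginine deiminase (0.27), were each at an adjusted p of 0.276. So were the centrosome and cilium genes Cep290 (0.26) and Pcm1 (0.21), the G protein subunit Gnb4 (0.14), the ubiquitin enzymes Arih1 (0.20), Usp47 (0.18) and Rnf213 (0.23), the lipid transfer protein Osbpl8 (0.25), R3hdm1 (0.23) and the pseudogene Zfp968-ps (0.74).

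Groups without overlap were rare. In 5 genes every ADU-S100 tumor was above every untreated tumor (0.0301% of genes tested), namely Samd8, Fndc3a, Gnb4, Pcm1 and Miga1. In 2 genes every one was below (0.012%), namely Mrpl20 and 2010320M18Rik. Miga1 (0.23), Mrpl20 (−0.30) and 2010320M18Rik (−0.42) are named here after their values were seen.

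**Figure D2:**
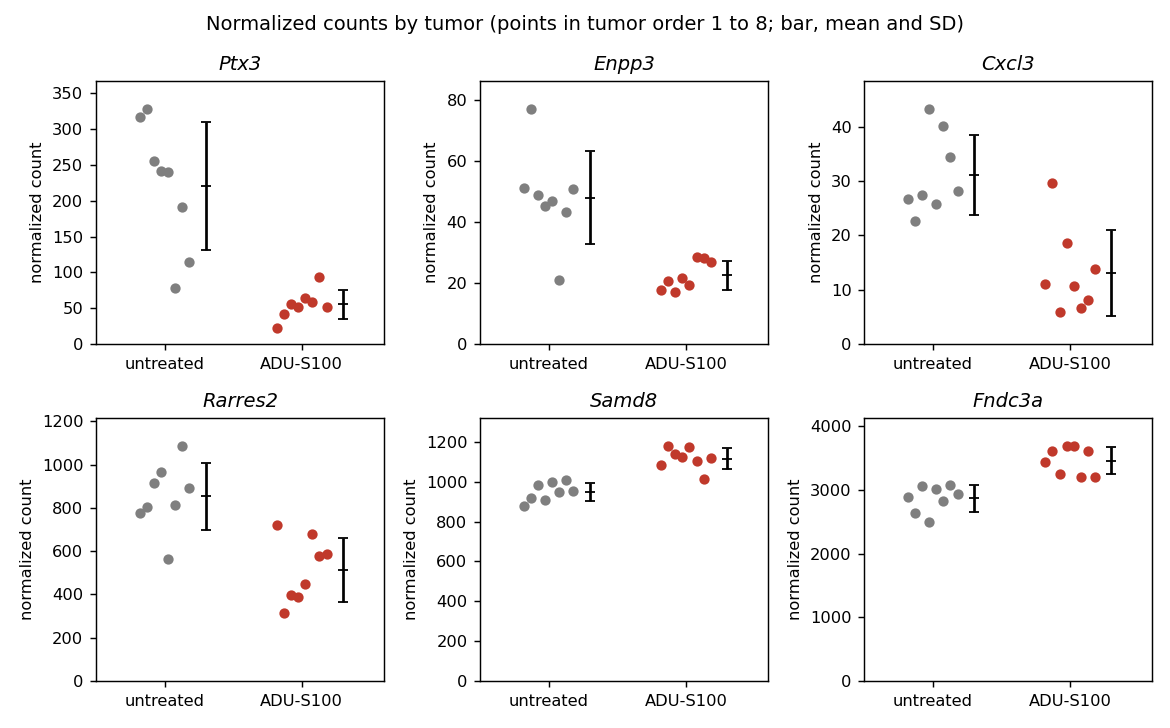
Normalized counts of 6 genes by tumor, untreated in grey and ADU-S100 in red, with points in tumor order and a bar for the mean and SD (n = 8). Ptx3 and Enpp3 each have 1 low untreated tumor, tumor 6, and the Samd8 and Fndc3a groups do not overlap although their log2 differences are 0.23 and 0.27.

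Of 21 STING pathway genes tested, 5 were higher and 1 lower at an unadjusted p under 0.05, a share of 28.6% beside 14.5% of all genes tested. Their median log2 difference was 0.012, beside −0.0036 for all genes. Sting1 itself ran from 927 to 1344 in untreated tumors and from 910 to 1122 with ADU-S100. Its log2 difference was −0.049, with a 95% interval from −0.19 to 0.094. Cgas, the sensor, differed by 0.13 (interval −0.078 to 0.34), and the kinase Tbk1 by 0.080 (−0.012 to 0.17). Irf3, the transcription factor that TBK1 activates, was the lower gene, with medians of 796 and 712 and a log2 difference of −0.17 (unadjusted p = 0.0227, adjusted p = 0.306 in limma). Among the higher genes were Trim32, a ubiquitin ligase that modifies STING (0.19), Stim1, a calcium sensor that holds STING in the endoplasmic reticulum (0.40), and the interferon-inducible DNA-binding protein Ifi203 (0.19), at adjusted p-values of 0.276, 0.304 and 0.314 in limma.

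Interferon-β and interferon-λ transcripts were found in some tumors and at or near 0 in the others, largely with the same numbers in both groups. Ifnb1, which encodes interferon-β, had a normalized count of 42.4, 42.2 and 50.6 in untreated tumors 2, 4 and 8, 16.3 in tumor 3 and 0 to 4.0 in the others. With ADU-S100 it was 28.6, 25.5 and 63.4 in tumors 2, 4 and 8 and 0 to 4.4 in the others. Ifnl2, an interferon-λ gene, was 19.6, 18.5 and 42.6 in untreated tumors 2, 4 and 8 and 14.3, 12.8 and 40.8 in ADU-S100 tumors 2, 4 and 8, and was 0 in the remaining 10 tumors. Ifnl3 was above 0 in the same 6 tumors. Mean levels of Ifnb1 were 19.6 and 15.9 (exact permutation test over 12870 splits, two-sided p = 0.742), a test that does not use the tumor numbers. Over the 18 genes of the lists that failed the filter on low values, the lowest p of this exact permutation test was 0.0263 (Chst4), or 0.399 after Benjamini-Hochberg adjustment.

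Of 46 antiviral interferon-stimulated genes tested, 3 were higher and 0 lower at an unadjusted p under 0.05, with a median log2 difference of 0.062. Their share of 6.52% was below the 14.5% of all genes. The 3 were Dtx3l (0.26) and Parp14 (0.17), partners in ADP-ribosylation, and the RNA-dependent kinase Eif2ak2 (0.14), and next in rank was the RNA sensor Ddx58 (0.15). The classical members had wide spreads in the untreated tumors. Isg15, a ubiquitin-like modifier, ran from 754 to 2345 and from 764 to 1396, a log2 difference of −0.14 with a 95% interval from −0.57 to 0.29. The translation inhibitor Ifit1 differed by 0.049 (−0.36 to 0.46), the antiviral GTPase Mx1 by −0.036 (−0.37 to 0.30) and Irf7, which amplifies interferon production, by −0.046 (−0.40 to 0.30). The signs of the last 3 and of Isg15 changed under alternatives.

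Of 23 genes that interferon-γ induces, 7 were higher and 0 lower at an unadjusted p under 0.05, a share of 30.4% beside 7.92% of all genes higher and 6.57% lower. The median log2 difference was 0.25, and 21 were above 0. The 7 include the guanylate-binding proteins Gbp9 (medians 3254 and 4537, log2 0.40) and Gbp7 (2787 and 3707, 0.30), the immunity-related GTPase Irgm2 (4724 and 6226, 0.30) and Nos2, the inducible nitric oxide synthase (1012 and 1542, 0.50). None passed the adjusted threshold, and the lowest adjusted p in the list was 0.276 in limma. With muscle and skin marker levels as covariates, chosen after the data were seen, the median of the list was 0.11. The ligand gene Ifng was low, with medians of 33.3 and 49.3 and a log2 difference of 0.17 (interval −0.33 to 0.67). The interferon-γ-induced chemokine gene Cxcl10 differed by 0.11 (interval −0.24 to 0.46). Antigen presentation genes had medians of 0.067 over 17 class I genes and 0.067 over 10 class II genes. The class I transactivator Nlrc5 (0.24) and the peptidase Erap1 (0.16) were the 2 class I genes at an unadjusted p under 0.05, and H2-Ob, a class II peptide-loading chain (0.37), was the 1 class II gene. These shares (11.8% and 10%) were below the 14.5% of all genes.

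**Figure D3:**
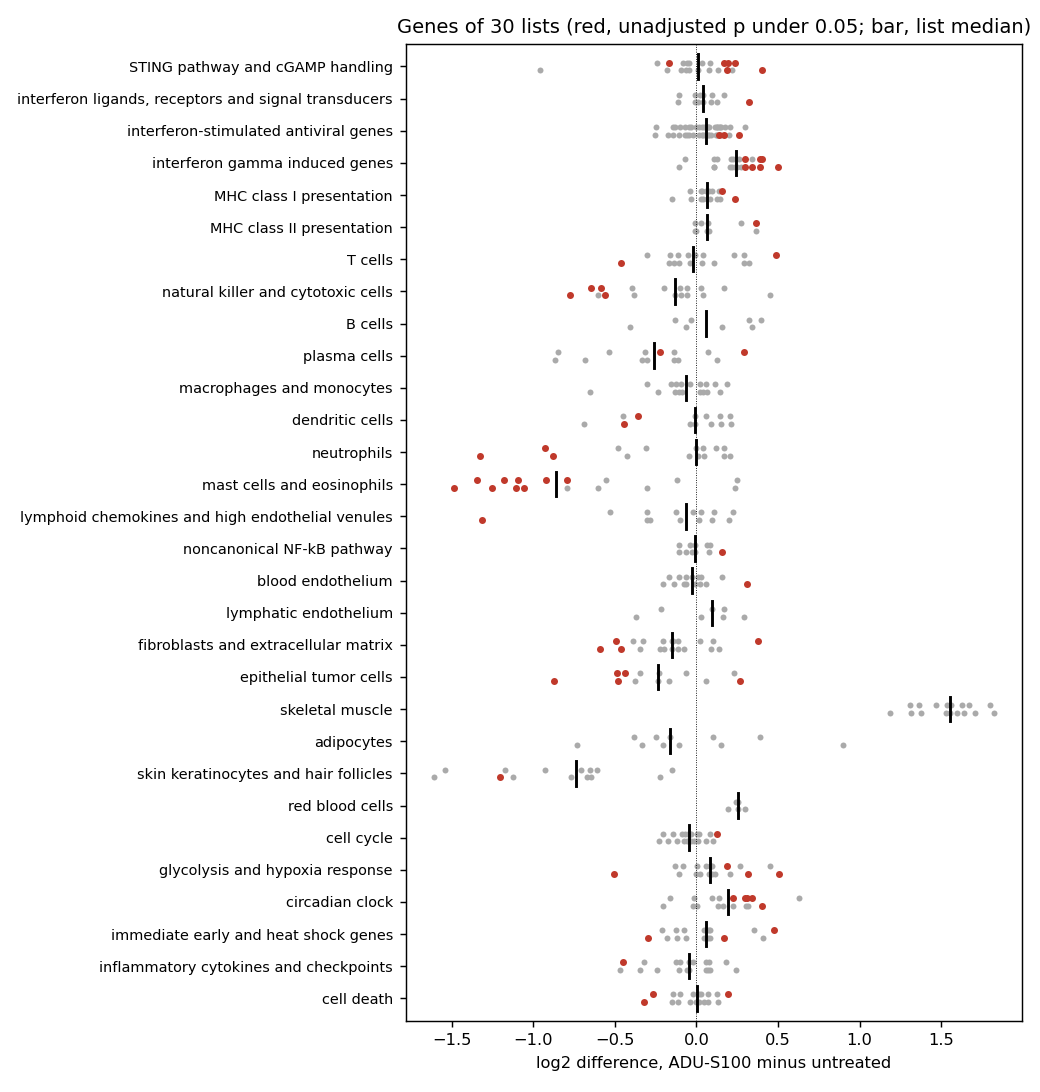
Log2 differences (ADU-S100 minus untreated, x axis) of the genes in 30 lists, 1 point per gene, red where the unadjusted p was under 0.05, with a bar at each list's median. Interferon-γ-induced genes lie mostly above 0, mast cell and eosinophil genes mostly below, and the 17 skeletal muscle genes are all above 1 with none in red.

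Chemokines that attract neutrophils had lower means with ADU-S100, each at an unadjusted p under 0.05. These are the CXCR2 ligand genes Cxcl1, Cxcl2 and Cxcl3, neighbors on chromosome 5 that are NF-κB targets. Each holds the κB motif GGGANTTTCC (the central base free, both strands searched) in the 300-base RefSeq promoter window of GRCm38.p6. Of 32851 such windows, 135 (0.411%) hold it. The windows are shown because all 3 genes differed in the same direction, with the motif in capitals, on the plus strand.
Cxcl1 (chr5:90891166-90891191): tgtactccGGGAATTTCCctggcccg
Cxcl2 (chr5:90903794-90903819): tgagctcaGGGAATTTCCctggtccc
Cxcl3 (chr5:90786020-90786045): gctgcgggGGGAATTTCCccagcccg
The motif starts 71, 97 and 73 bases before the start site in that order. The Ptx3 window does not hold these letters. Such a match is a description of sequence and not of binding.

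Cxcl3 had a normalized count of 22.7 to 43.2 (median 27.9) in untreated tumors and 5.99 to 29.6 (median 10.9) with ADU-S100. All but ADU-S100 tumor 2, the highest of that group, lay below the untreated range. Cxcl2 had medians of 59.1 and 36.3 (log2 −0.88, unadjusted p = 0.00655, adjusted p = 0.279 in limma). Cxcl1 had medians of 188 and 103 and a wide untreated range of 76.7 to 589 (log2 −0.93, adjusted p = 0.307 in limma). The paralogs share sequence, so reads may be split among them. These were the 3 genes of the 15 on the neutrophil list at an unadjusted p under 0.05 (20%, beside 14.5% of all genes). The list's median was −0.0037, and its summed normalized count had medians of 7669 without and 5990 with ADU-S100.

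Mast cell and eosinophil genes had the lowest median of the 30 lists. Mast cells are tissue-resident granulocytes known for their stored proteases. Of 16 genes tested, 9 were lower and 0 higher at an unadjusted p under 0.05, a share of 56.2% beside 6.57% of all genes lower, and the median log2 difference was −0.86. This list, like the others, was chosen with earlier results of these data known, so its share is a description. The chymase gene Mcpt1 was 313 to 463 in 7 untreated tumors and 885 in untreated tumor 4, against 50.9 to 383 with ADU-S100. ADU-S100 tumors 1, 2 and 5 (316 to 383) lay within the untreated range and the other 5 below it. Mcpt2, a related chymase, had medians of 297 and 110 (−1.35), and the tryptase genes Tpsb2 (219 and 103, −1.18) and Tpsab1 (31.0 and 14.9, −1.11) were lower as well. The summed normalized count of the whole list was 1515 to 3440 without and 700 to 2635 with ADU-S100, and no list gene was at 0 in any tumor. Skin markers were lower on average too, with a list median of −0.74, and ADU-S100 tumor 1 held the highest sum of its group for both lists (2635 for mast cells and eosinophils, 42468 for skin). In the untreated group these tumors differed, since the mast cell and eosinophil sum was highest in tumor 4 (3440, skin 24500) and was 1709 in tumor 5, which had the most skin (46156). The skin and mast cell lists also lay on the same side with the antibody (0.99 and 0.39) and between B and A of the second set of libraries (2.75 and 1.31). With muscle and skin covariates the median was −0.68, and the part of skin in the difference was not tested further. All were at an adjusted p of 0.276 or more in limma. In bulk tumors fewer cells of a type and less RNA per cell cannot be told apart.

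Among lymphocyte genes, Cd8a, the co-receptor of cytotoxic T cells, ran from 180 to 562 and from 256 to 520, a log2 difference of 0.29 with a 95% interval from −0.14 to 0.72. Cd4, the co-receptor of helper T cells, differed by −0.16 (−0.53 to 0.20). Over 18 T cell genes the median was −0.024, with Cd28, a co-stimulatory receptor, higher (0.49) and Thy1, which fibroblasts also express, lower (−0.46) at an unadjusted p under 0.05 (11.1%, beside 14.5% of all genes). Of 17 natural killer and cytotoxic genes 13 were below 0, and 4 were lower and 0 higher at that level (23.5%, beside 6.57% of all genes lower), with medians of 46.6 and 30.9 for the receptor Klrb1c (−0.56), 59.8 and 43.6 for granzyme Gzma (−0.59), 232 and 163 for Gzmc (−0.78) and 20.6 and 11.8 for the receptor Ncr1 (−0.65). The summed normalized count of that list went the other way, with medians of 2242 without and 2862 with ADU-S100. Gzmb differed by −0.13 (−0.49 to 0.23). No B cell gene of 8 tested was at an unadjusted p under 0.05. Foxp3, the regulatory T cell factor, was lower by a log2 value of −0.45 (medians 43.7 and 31.9). Cxcl13, the chemokine that draws B cells into follicles, had a range of 12.4 to 55.7 in untreated and 2.19 to 24.4 in ADU-S100 tumors (log2 −1.32, unadjusted p = 0.00957, adjusted p = 0.285 in limma). It was the 1 gene of 14 at an unadjusted p under 0.05 on the list of lymphoid chemokines and high endothelial venules (7.14%, beside 14.5% of all genes). The median of that list was −0.063.

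Of the myeloid genes, the macrophage marker Adgre1 had medians of 1096 and 1106 (log2 0.019, interval −0.20 to 0.24), and 0 of 18 macrophage and monocyte genes reached an unadjusted p under 0.05, beside 14.5% of all genes. Of 13 dendritic cell genes 2 were lower at that level, a share near the 14.5% of all genes, namely Ccr7 (−0.36), a receptor for lymph node homing, and Batf3 (−0.44), a factor of cross-presenting cells. The median of that list was −0.0060. Of the proliferation genes 1 of 22 was at an unadjusted p under 0.05 (4.55%, beside 14.5% of all genes), with Mki67 differing by 0.083 (interval −0.16 to 0.32). Of 13 epithelial genes 4 were lower and 1 higher (38.5%, beside 14.5% of all genes). The epithelial genes Krt18 (medians 6788 and 5264, −0.44), Msln (3192 and 2320, −0.48) and Cdh1 (436 and 177, −0.87) were lower and the progenitor factor Sox9 was higher (3452 and 4342, 0.27). Cdh1, which skin also expresses, was highest of its group in the tumor with the most skin marker signal, both without ADU-S100 (617 in tumor 5, skin sum 46156) and with it (665 in tumor 1, 42468), and lowest with ADU-S100 in the tumor with the least (129 in tumor 3, 1434). In the untreated tumor with the least skin signal (tumor 3, 2877) Cdh1 was 361, whereas its lowest untreated levels were 207 in tumor 2 and 213 in tumor 8. The part of skin in the Cdh1 difference was not tested. Of 20 fibroblast and matrix genes 3 were lower and 1 higher (20%, beside 14.5% of all genes), with 15 below 0 and a median of −0.15. Pdgfra (−0.59) and Tagln (−0.50) were among the lower, and the matrix gene Fn1 was the higher one (0.38). The summed normalized count of the fibroblast and matrix list went the other way, with medians of 432850 without and 493986 with ADU-S100.

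Of 21 glycolysis and hypoxia genes 3 were higher and 1 lower at an unadjusted p under 0.05 (19.0%, beside 14.5% of all genes). Besides Hk2, the glycolytic activator Pfkfb3 (medians 914 and 1252, log2 0.51) and the collagen hydroxylase P4ha1 (0.19) were higher and Adm, the hypoxia-responsive peptide adrenomedullin, lower (−0.50). Of 18 circadian genes 5 were higher and 0 lower (27.8%, beside 7.92% of all genes higher), among them Nr1d1 (0.34), Nr1d2 (0.22) and Tef (0.29) beside Bhlhe41. The labels used here give no hour of collection, and its part in this was not tested. Of 18 immediate early and heat shock genes 3 were at this level (16.7%), among them the heat shock gene Hspa1b (0.48) and the early gene Ier2 (−0.30). Of 18 cell death genes 1 was higher and Pmaip1 (−0.32) and Ripk3 (−0.26) were lower, a share of 16.7% near the 14.5% of all genes. The non-canonical NF-κB regulator Traf3 (0.16) and the endothelial receptor Flt1 (0.31) were the single genes of their lists at this level, 1 of 11 (9.09%) and 1 of 15 (6.67%), both below the 14.5% of all genes. Of 14 plasma cell genes 11 were below 0, 1 was higher and the secretory factor Xbp1 was lower (−0.22), a share of 14.3% that is near the 14.5% of all genes.

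Markers of neighboring tissue varied widely from tumor to tumor. All 17 skeletal muscle genes averaged more than 2-fold higher with ADU-S100 (median log2 1.56), as did 240 of all 16613 genes tested. Of the 17, 0 had an unadjusted p under 0.05, beside 14.5% of all genes. The giant sarcomere protein gene Ttn ran from 438 to 9817 in untreated and from 579 to 21638 in ADU-S100 tumors (log2 1.83, unadjusted p = 0.052, adjusted p = 0.346 in limma), and the myosin gene Myh4 differed by 1.80. Muscle markers took 0.0581 to 1.19% of an untreated library and 0.075 to 2.17% of an ADU-S100 library, and no marker was at 0 in any tumor. Untreated tumors 2, 3 and 5 and ADU-S100 tumors 2, 3, 4, 5, 7 and 8 were the high ones. Skin markers ran the other way, at 0.0174 to 0.288% and 0.0087 to 0.268%, with a median log2 difference of −0.74, and 2 of the 14 were at 0 in some tumor. The basal keratin Krt14 (medians 5470 and 1738, log2 −1.20) was the only skin gene of 14 at an unadjusted p under 0.05. That share of 7.14% is near the 6.57% of all genes lower. The keratin gene Krt5 differed by −0.93. The first principal component of the 16 libraries held 38.1% of the variance and followed these markers, with a Pearson correlation of 0.92 for muscle and −0.83 for skin across the libraries, given as a description. With both marker levels as covariates, 1920 genes had an unadjusted p under 0.05 in place of 2408 and Ptx3 reached an adjusted p of 0.0466 in limma.

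The differences also followed transcript length. With the genes split into 5 equal bins by length, 23.9% of the longest bin were higher and 1.83% lower at an unadjusted p under 0.05. In the shortest bin 1.49% were higher and 14.7% lower. Untreated tumors 1 to 4 carried the shift, with a median log2 deviation of 0.13 to 0.28 over the shortest bin, against −0.13 to −0.03 in untreated tumors 5 to 8 and −0.15 to 0.03 in ADU-S100 tumors. The 15 genes ranked first among those higher had a median transcript length of 6255 bases, and those lower 2366. Shares of the lists, the circadian list included, are set beside all genes and not beside genes of like length. With the length trend taken out of each library, 1740 of 16390 genes had an unadjusted p under 0.05, split into 854 higher and 886 lower. Samd8 then differed by 0.12 (adjusted p = 0.398) and Fndc3a by 0.18 (0.395 in limma), whereas Ptx3 had an adjusted p of 0.0937 in limma. Whether the shift came from RNA quality, library preparation or the tumors was not tested.

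**Figure D4:**
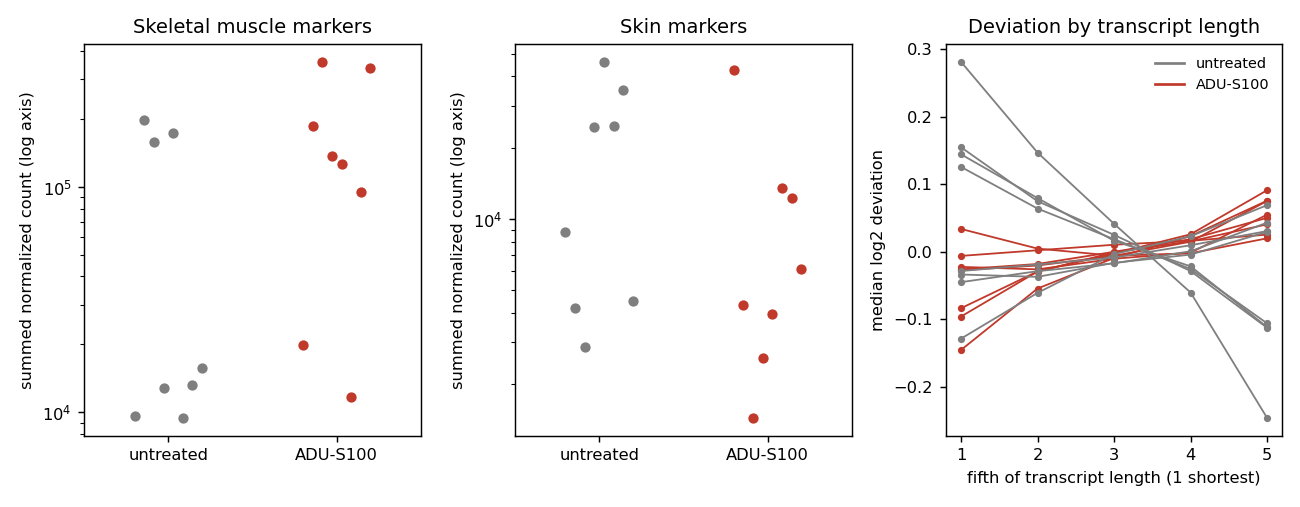
Summed normalized counts of the skeletal muscle list (left) and the skin list (middle) by tumor on log axes, and the median log2 deviation of each library in 5 bins of transcript length (right). Untreated tumors are grey and ADU-S100 tumors red. Muscle levels spread over more than 10-fold within each group, and 4 untreated tumors climb steeply toward short transcripts.

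The effect of ADU-S100 could be set beside that in antibody-treated tumors, where the combination (n = 8) was compared with anti-LTβR alone (n = 8). These comparisons share no library. With the antibody 357 of 16932 genes passed an adjusted p under 0.05 and a 2-fold change (2.11%), and 4504 passed the adjusted p alone (26.6%). The genes ranked first above mostly had the other sign there. Ptx3 was higher with the combination by a log2 value of 1.01 (adjusted p = 0.00089), with 36.1 to 70.2 after the antibody alone and 81.1 to 141 with both. Enpp3 (1.13), Cpxm1 (1.14), Nnmt (0.96), S1pr3 (0.88) and Rarres2 (0.68) were likewise higher at adjusted p-values of 0.0012 to 0.017, and Cxcl3 differed by 0.80 (adjusted p = 0.121 in limma). Of 13 genes ranked lower that could be tested there, 9 had the opposite sign, 7 of them at an adjusted p under 0.05. All 15 genes ranked higher were below 0, and 6 of them passed, including Fndc3a (−0.44), Padi4 (−0.43) and Samd8 (−0.23). Bhlhe41 (−0.0088) and Hk2 (−0.022) lay near 0 and changed sign with edgeR and with the length trend taken out, and Samd8 lost its call with no filter (adjusted p = 0.0503 in limma), with edgeR (0.0514) and with the length trend taken out (0.118). Over all 16427 genes tested in both, 44.2% had the same sign, and the Pearson correlation of the log2 differences was −0.26.

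The difference between these effects was tested directly as the interaction of the agents, over 32 libraries and 17649 genes. It passed an adjusted p under 0.05 for 3240 genes (18.4%). It was 2.94 on the log2 scale for Ptx3, 2.14 for Enpp3, 2.18 for Cpxm1 and 2.13 for Cxcl3, and −0.71 for Fndc3a. Since it contains the contrast by which genes were ranked, also within their lists, its size in these and the following genes is a description, apart from Cd4, which was fixed by name. Among genes named by their lists, the fibroblast genes Pdgfra (−0.59 alone, 1.02 with the antibody), Thy1 (−0.46 and 0.91) and Tagln (−0.50 and 1.26) had an interaction past the threshold, as did Fn1 (0.38 and −0.45, the latter no longer called with the length trend taken out, adjusted p = 0.0687 in limma), Gbp7 (0.30 and −0.40), Ccr7 (−0.36 and 0.64) and Cd4 (−0.16 and 0.72). Of 20 fibroblast genes, 15 had a positive and 1 a negative interaction at that threshold, beside 7.33% of all genes positive and 11% negative. The fibroblast list was not alone in this. Of 15 blood endothelial genes 12 were positive and 1 negative, and of 7 lymphatic endothelial genes 4 were positive and 0 negative.

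**Figure D5:**
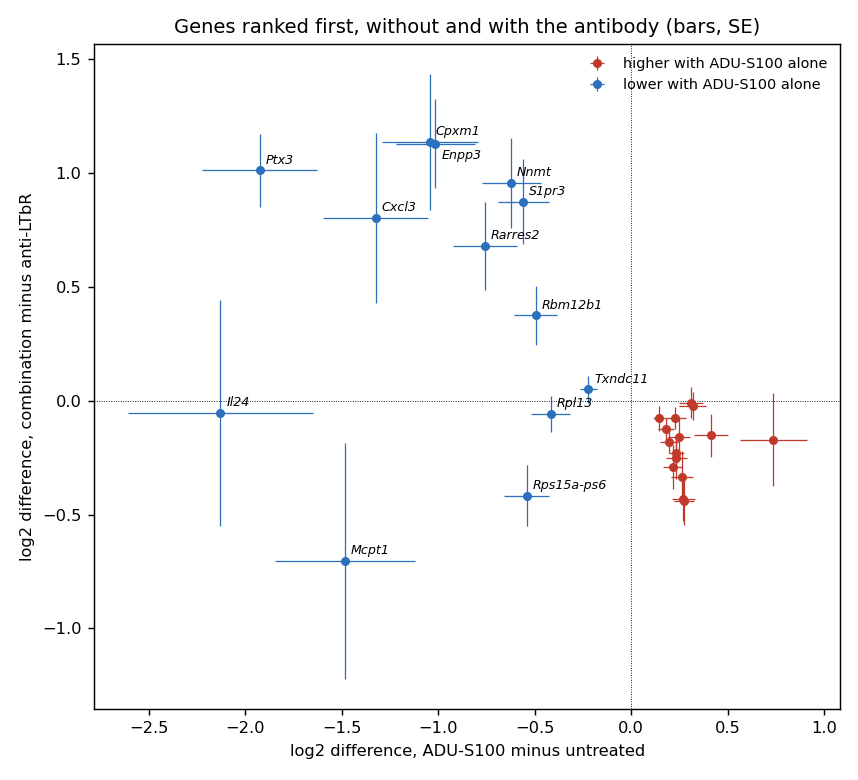
Log2 difference made by ADU-S100 without the antibody (x axis) and with it (y axis) for the genes ranked first, with bars for the SE. Genes lower with ADU-S100 alone (blue) include 9 above 0 on the y axis, and those higher alone (red) all lie at or below 0.

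A second set of libraries in the series, titled with the letters A to D, holds 5 tumors a letter. Its description field gives A as control and B as ADU-S100, whereas its treatment field names the combination for every library, so what each letter received is not settled. Between B and A, 0 of 14964 genes passed an adjusted p under 0.05 (0%) and 1105 had an unadjusted p under 0.05 (7.38%) in limma, and edgeR also called 0. The Ptx3 level was 9.44 to 76.4 in A and 30.9 to 204 in B (log2 1.30). Cxcl3 was 12.6 to 95.7 in A and 71.9 to 163 in B (1.95), Cxcl2 differed by 2.30, Rarres2 by 0.80, Cpxm1 by 0.96 and Enpp3 by 0.76. Samd8 (−0.23) and Fndc3a (−0.30) were also on the other side of 0 from their values above, at adjusted p-values of 0.605 to 0.635 for these 8 genes. Of the genes ranked first, 8 of 13 lower and 15 of 15 higher had the opposite sign between B and A, and the other 5, such as Il24 (−0.22), had the same. Over all 14357 genes tested in both, 50.0% had the same sign, and the Pearson correlation of the log2 differences was −0.33. The skin list differed by a median of 2.75 between these groups.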

How the data were processed

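Per the labels and the study's methods, poly(A) RNA of each tumor was made into strand-marked libraries and sequenced in pairs. The processing notes name cutadapt 1.9, HISAT2, StringTie, STAR, Partek, DESeq2, edgeR and mm39. Which aligner made each table was not settled. The values the authors deposited are a signal, the gene counts of a library scaled by its size factor, in a table of 32 libraries and in another of 52 with its own factors. In the second, values are whole multiples of 1 step per library, and dividing by it recovered whole reads (at least 99.98% of values within 0.1 of a whole number), although 9 libraries have a step too near 1 to tell from rounding. The deposited gene set scores of the authors' own comparisons were not used, and 0 per-sample columns were left unmapped.

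Tests used limma 3.58.1 (trend) in R 4.3.3 on log2(value + 1), after the filter filterByExpr of edgeR 4.0.16 with a minimum of 10, with Benjamini-Hochberg adjustment. Only the libraries of each comparison entered its fit (16, or 10 for B against A), and 32 entered the interaction. Thresholds were an adjusted p of 0.05 and 2-fold. The study's methods use DESeq2 on counts, which was run here (1.42.0) on recovered reads as an alternative. Scripts were tested on simulated data. No 2 libraries agreed within sampling noise. Genes named are the 15 ranked first by p in each direction without predicted genes, a fixed set of pathway and cell type genes (some not reported here), up to 4 genes a list by p, and up to 10 genes past the threshold under an alternative. Members and lists were chosen with earlier results of these data known. Transcript lengths (98.7% of genes tested) are the longest per gene in GENCODE vM21 and promoter windows are from RefSeq. Intervals cover the spread between libraries.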

Additional observations from a re-analysis of the deposited data

Results flagged for a closer look

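In groups of 8 tumors, the highest or lowest tumor stood apart from the rest by Dixon's criterion on the log2 scale in 14 of the 216 gene and group pairs checked. Chance flags about 1 in 20 groups. Untreated tumor 6 was low for Enpp3 (21.1, the others 43.1 to 76.8), C1rb (1.7, the others 25.8 to 76.1), Adm (51.1, the others 92.6 to 157) and Gm13340 (0, the others 10.8 to 34.7). Untreated tumor 4 was high for the mast cell genes Mcpt1 (885, the others 313 to 463) and Mcpt2 (677, the others 216 to 371) and low for Miga1 (221, the others 247 to 273). Untreated tumor 3 was high for Sting1 (1344, the others 927 to 1095), and untreated tumor 1 low for Gnb4 (797, the others 857 to 890). Gkn2, a secreted protein of the stomach lining, was at 2656 in untreated tumor 8 and at 0.96 to 7.8 in the other untreated tumors. In the ADU-S100 group Cdh1 was high in tumor 1 (665, the others 129 to 263), Cd209a low in tumor 2 (4.93, the others 17.0 to 27.6), Cep290 low in tumor 7 (232, the others 251 to 268) and H2-Ob high in tumor 3 (80.9, the others 49.4 to 62.2).

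The effect of ADU-S100 differed without and with the antibody, by the interaction term, in 3240 genes. The log2 interaction was positive for Ptx3 (2.94), Cpxm1 (2.18), Enpp3 (2.14), Cxcl3 (2.13), Tagln (1.76), Pdgfra (1.61), Nnmt (1.58), Rarres2 (1.44), S1pr3 (1.44), Thy1 (1.38), Ccr7 (0.99) and Cd4 (0.88). It was negative for Fn1 (−0.83), Fndc3a (−0.71), Padi4 (−0.70), Gbp7 (−0.70), Rnf213 (−0.48), Samd8 (−0.46), Hk2 (−0.34) and Bhlhe41 (−0.32). Apart from Cd4, these genes were named by a contrast that the interaction contains, so its size in them is a description.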

How the results depend on the processing

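In ADU-S100 against untreated tumors, 0 genes passed an adjusted p under 0.05 with a pseudocount of 0.1, no filter, a minimum of 10 in every library, TMM factors, array weights, the table of 52 libraries or the length trend taken out. The count was 1 with all 4 groups in the fit, with edgeR (TMM or RLE) and with muscle and skin covariates (Ptx3 each time), and 39 with DESeq2, 1 of them past 2-fold. DESeq2 gave an adjusted p for 5241 of 15378 genes and none for Ptx3 or Enpp3. Leaving out 1 tumor gave 0 to 6 genes, all past 2-fold, and 1597 to 3047 genes at an unadjusted p under 0.05, the lowest without untreated tumor 4. The only left-out tumors with calls were untreated 6 (6 genes, with Ptx3, Enpp3, C1rb and Gm13340 among them) and ADU-S100 4 (1 gene, Angptl8). With a replicate block the count was 2, 1 of them past 2-fold, among them Pfkfb3 (adjusted p = 0.0112 in limma). The numbers were not treated as a pairing, since no label says what a number marks. Of 8 same-numbered pairs, 4 correlated at 0.25 to 0.52 and the others at −0.083 to 0.094. Of the untreated tumors, 3 correlated best with their own number, and Ifnb1 and Ifnl2 were found largely at the same numbers in both groups. What same-numbered tumors share was not tested. The block moved no other count of genes by over 1.5 times, and with the antibody Cxcl3 passed and Fn1 no longer did.

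Genes near 0 changed sign, and the cause was not tested. Leaving out 1 tumor, Sting1 ran from −0.073 to 0.0036, Irf7 from −0.12 to 0.040, Ifit1 from −0.025 to 0.18, Mx1 from −0.12 to 0.063 and Adgre1 from −0.039 to 0.083. Array weights turned Irf7 (0.13), Isg15 (0.087), Mx1 (0.035) and Gzmb (0.030). Covariates turned Ifng (−0.13), Ifit1 (−0.099) and Adgre1 (−0.077), and the length adjustment Mki67 (−0.071). Ifit1 was −0.00044 with edgeR TMM, −0.0079 with RLE and −0.0081 with DESeq2. With the antibody, Bhlhe41 was 0.017 with edgeR and 0.062 without the length trend, and Hk2 0.0043 and 0.015. Medians of the 30 lists moved by less than 1 SD between tumors under every alternative, while the muscle and skin medians were −0.036 and −0.039 under their own covariates. Between B and A no filter gave 1822 genes at an unadjusted p under 0.05, and leaving out 1 tumor gave 534 (without B tumor 3) to 1757 (without B tumor 2), with 0 to 1 past the adjusted threshold. Covariates and the length adjustment were chosen after seeing the data. Low genes such as Ifnb1 and Angptl8 rest on few reads.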

Other observations

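Gkn2 had the largest average difference of the genes tested, 4.09 on the log2 scale (unadjusted p = 0.0165, adjusted p = 0.295 in limma), and is named after its values were seen. Its normalized count was 1564, 796, 976, 992 and 884 in ADU-S100 tumors 2, 3, 4, 5 and 7 and 14.3, 9.9 and 4.95 in tumors 1, 6 and 8. It was 2656 in untreated tumor 8 and at most 7.8 in the other untreated tumors. In the 16 antibody-treated tumors it was at most 10.9. With edgeR its log2 difference was 0.95.

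In the antibody-treated groups, Ifnb1 was 29.7, 30.4 and 38.6 in anti-LTβR tumors 1, 3 and 7 and 20.2, 26.6 and 60.7 in combination tumors 1, 3 and 7, and 0.9 to 4.6 in the other 10. Ifnl2 was above 0 in those 6 tumors (14.2 to 40.5) and 0 in the other 10. Without the antibody the tumors with these transcripts were numbers 2, 4 and 8 in both groups. These genes were picked for this pattern after their values were seen, and what same-numbered tumors share is not stated in the labels.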
